A study of Mus musculus with 15 samples.

Results

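The response of healthy muscle to tamoxifen was read from 8 RNA-seq libraries of the series, 4 from WT muscle (WT) and 4 from WT muscle of tamoxifen-treated mice (WT + TAM), out of 15 libraries in all. The libraries were taken by their labels alone. WT + TAM was compared with WT over all libraries and again without WT + TAM replicate 1, a library that stood apart. All mice were males of the 129Pas strain, sampled at 7 weeks, and the tissue was the tibialis anterior, a fast-twitch muscle of the lower hind limb. WT mice carried no mutation or transgene named in the labels and had no treatment listed. WT + TAM mice had the same genotype and were given tamoxifen. The labels state neither its dose, route or duration nor what untreated mice received. The other 7 libraries came from mice lacking myotubularin, a lipid phosphatase encoded by the X-linked gene Mtm1, either untreated (Mtm1-/y, 4 libraries) or given tamoxifen (Mtm1-/y + TAM, 3 libraries). They entered the fits as a shared source of spread and as a second setting of the same drug. The labels number the replicates without tying each to a named animal, so p-values measure the spread between these samples, part of which may be technical.

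Tamoxifen is a selective oestrogen receptor modulator. Depending on the tissue, its metabolites block or activate oestrogen receptors, which act as ligand-dependent transcription factors. Skeletal muscle responds to several steroid hormones, and androgens and glucocorticoids are known for opposite effects on muscle mass. The tibialis anterior of the mouse consists almost wholly of fast fibres, so transcripts of slow fibres, fat, tendon and nerve are minor in a clean dissection. In bulk tissue, fewer cells of a type and less RNA per cell cannot be told apart.

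Sequencing depth was 22854090 to 45823277 counts in WT and 19888576 to 45276748 counts in WT + TAM. Values are CPM, the counts scaled to a common library size with TMM factors. Mtm1 was at 14.9 to 15.6 CPM in WT, at 13.5 to 17.7 CPM in WT + TAM and at 2.91 to 3.71 CPM in the 7 mutant libraries, which fits the labels. The main fast myosin of this muscle, Myh4, was at 42202 to 75773 CPM in WT and 35831 to 49730 CPM in WT + TAM (log2 fold change -0.32 ± 0.17 (SE), edgeR quasi-likelihood adjusted p = 0.493). The 2 groups overlapped for Myh4.

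WT + TAM replicate 1 stood apart from the other 7 libraries. On log2 CPM its Pearson correlation with the other WT + TAM libraries was 0.964 to 0.966, against 0.987 to 0.990 among WT libraries. The slow myosin Myh7 was at 439 CPM in this library and at 1.45 to 3.70 CPM in the other 7. Slow troponin Tnnt1 was at 104 CPM against at most 5.30 CPM, and Postn, a matricellular protein of connective tissue, was at 332 CPM against at most 20.6 CPM. The adipokine Adipoq was at 12.02 CPM against 0.0381 to 2.08 CPM, and the lipid-synthesis enzyme Scd1 was at 243 CPM against at most 27.8 CPM. It was also low in regional developmental factors that the other 7 libraries held at higher levels. Sim1 was at 0.613 CPM there against 9.42 to 12.3 CPM, and Sim2 at 0.0817 CPM against 18.6 to 24.3 CPM. Tbx1 was at 1.06 CPM against 27.4 to 32.5 CPM in WT and 38.5 to 43.8 CPM in treated replicates 2 to 4. These genes were chosen because replicate 1 was extreme in them, and their values are a description.

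The summed level of 12 tendon markers was 99.9 to 125 CPM in WT. In WT + TAM it was 593 CPM in replicate 1, 82.5 CPM in replicate 2, 37.1 CPM in replicate 3 and 305 CPM in replicate 4. Replicate 4 thus also exceeded WT. Over 19 slow-fibre markers the sum was 778 to 1092 CPM in WT, 2477 CPM in replicate 1, 1927 CPM in replicate 4, and 843 and 838 CPM in replicates 2 and 3. Over 20 white adipocyte markers it was 5708 to 6288 CPM in WT, 13017 CPM in replicate 1 and 6539 to 7854 CPM in the other 3. Such sums follow their most abundant genes. Of the 20 white adipocyte genes, 7 had positive log2 fold changes without replicate 1, with a list median of -0.32. In replicate 4 Adipoq was at 0.0381 CPM and Plin1 at 0.153 CPM, below every WT library. Myh7 was at 3.70 CPM and Tnnt1 at 4.27 CPM in replicate 4, against 439 and 104 CPM in replicate 1. In WT they were at 1.46 to 2.80 CPM and 2.25 to 3.23 CPM, so replicate 4 lay above WT for both. Replicate 2 also lay above WT, at 3.42 and 5.30 CPM, and replicate 3 lay below, at 1.45 and 1.52 CPM. The myosin Myh1 was at 9480 to 10507 CPM in WT. In WT + TAM replicates 1 to 4 it was at 16161, 7311, 9567 and 17738 CPM. The part of these transcripts in the gene calls below was not tested beyond leaving out libraries.

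**Figure D1:**
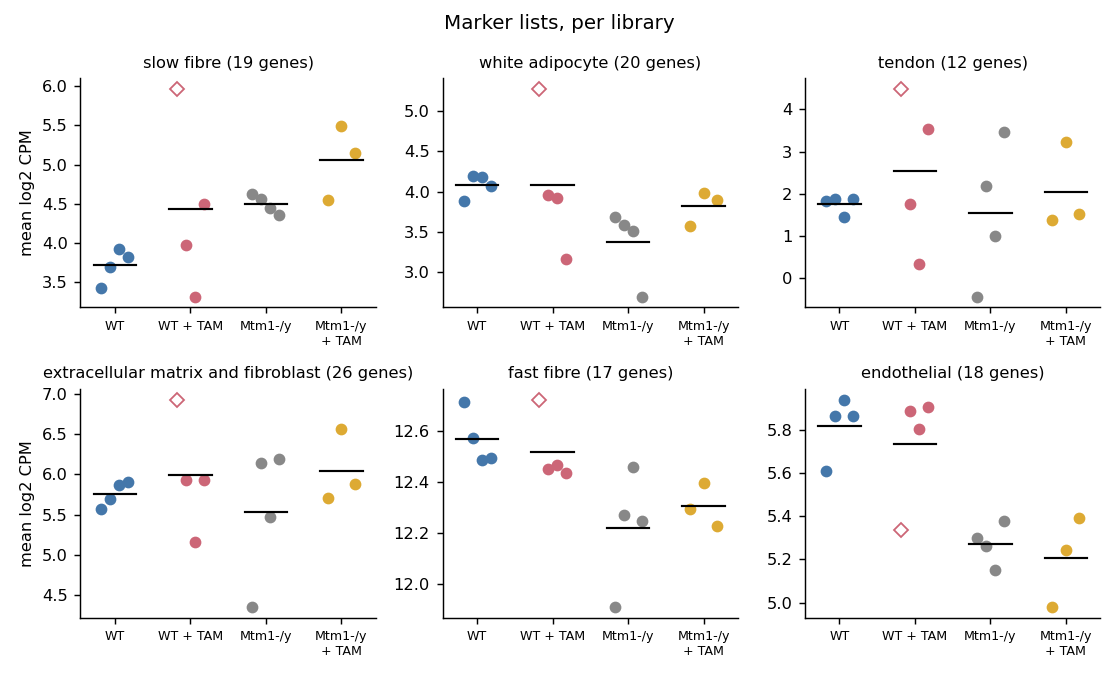
Mean log2 CPM over the tested genes of 6 marker lists (vertical axes) in each library, by group. Points are libraries, the open diamond is WT + TAM replicate 1 and bars are group means. The open diamond is the highest of the 8 WT and WT + TAM libraries in the slow-fibre, white adipocyte, tendon and extracellular matrix panels and the lowest in the endothelial panel.

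The number of genes that passed depended on the libraries and the tool. Over all libraries, with the mutants in the fit, 48 of 15533 tested genes (0.309%) passed an adjusted p of 0.05 in edgeR's quasi-likelihood test. Of these, 28 were higher and 20 lower in WT + TAM. Without replicate 1, 111 of 15510 genes (0.716%) passed, 64 higher and 47 lower. The number at an unadjusted p under 0.05 was close in both fits, 1757 and 1707 genes (11.31% and 11.01% of those tested). Counts at this p within the lists below are to be read against these shares. Leaving out 1 of the other 7 WT and WT + TAM libraries gave 11 to 38 genes with replicate 1 and 46 to 95 without it. DESeq2 gave 298 and 329 genes, and edgeR on WT and WT + TAM alone gave 48 and 332. The 48 genes of that fit were not the same set as the 48 above. The biological coefficient of variation was 20.8% with replicate 1 and 18.6% without it. The fits shared 44 genes. A further 67 passed only without replicate 1 and 4 only with it, so 115 genes passed in either fit, 100 of them protein coding.

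**Figure D2:**
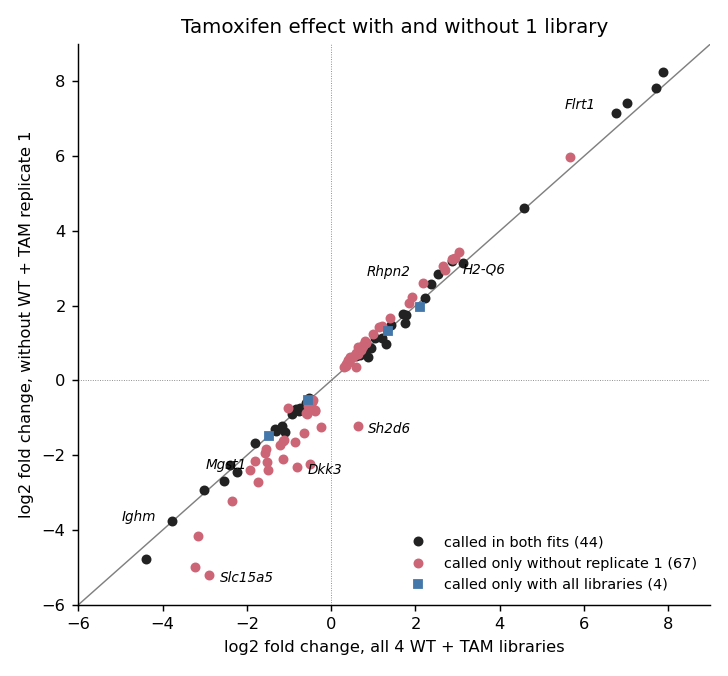
Log2 fold change of WT + TAM against WT over all libraries (horizontal axis) and without WT + TAM replicate 1 (vertical axis) for the 115 genes that passed in either fit. The diagonal marks equal values. Genes called in both fits lie close to it, and most genes called only without replicate 1 lie further from 0 on the vertical axis. Sh2d6 has opposite signs.

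Kmt5a, Pcx, Rhpn2, Otoa and Sept11 rose in both fits. Kmt5a, which adds a single methyl group to lysine 20 of histone H4, was at 78.1, 69.5, 60.1 and 62.8 CPM in WT and at 155, 186, 206 and 132 CPM in WT + TAM. Pcx, the mitochondrial pyruvate carboxylase that feeds oxaloacetate to the citrate cycle and to gluconeogenesis, was at 97.9, 80.6, 73.5 and 75.5 CPM in WT and at 226, 317, 307 and 216 CPM in WT + TAM. Neither gene showed any overlap between groups, and replicate 1 lay with the other treated libraries. Here and below, lack of overlap in single genes is a description, as the share of all tested genes without overlap is not given. Over all libraries, Kmt5a was higher by 1.33 ± 0.13 (SE) on the log2 scale in edgeR (adjusted p = 0.000451) and Pcx by 1.70 ± 0.18 (adjusted p = 0.000549). Rhpn2, a rhophilin that binds the GTPase RhoA, was at 1.77 to 2.25 CPM in WT and at 5.23, 11.6, 9.39 and 14.1 CPM in WT + TAM, with replicate 1 the lowest treated library. Its log2 fold change was 2.38 ± 0.27 (edgeR adjusted p = 0.00112). Otoa, which encodes otoancorin, was at 0.221 to 0.411 CPM in WT and at 2.66, 4.49, 1.86 and 2.29 CPM in WT + TAM, without overlap. Sept11, a septin of the cytoskeleton, was at 41.3 to 56.0 CPM in WT and 82.7 to 91.9 CPM in WT + TAM (log2 fold change 0.80 ± 0.10, edgeR adjusted p = 0.00243).

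Kmt5a, Pcx, Rhpn2, Otoa and Sept11 passed in every fit that left out 1 of the 8 libraries, whether replicate 1 was kept or not. So did Spock1, a secreted proteoglycan gene with no count in any WT library and 0.613, 1.48, 0.627 and 0.648 CPM in WT + TAM, and 1700001O22Rik, which fell from 1.15 to 3.03 CPM in WT to 0.0510 to 0.163 CPM in WT + TAM. Over all libraries 10 of the 48 genes passed in each of the 7 fits that left out one of the other libraries, and 12 of the 48 passed in none of these. Without replicate 1, 37 of the 111 genes passed in all 7 and 12 in none. No gene of either set changed sign. Losses of calls given for single genes are mostly those of leave-out fits, and some calls were also lost under other filters, tools or the replicate block. Sept11, Spock1 and 1700001O22Rik were singled out after their values were seen.

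**Figure D3:**
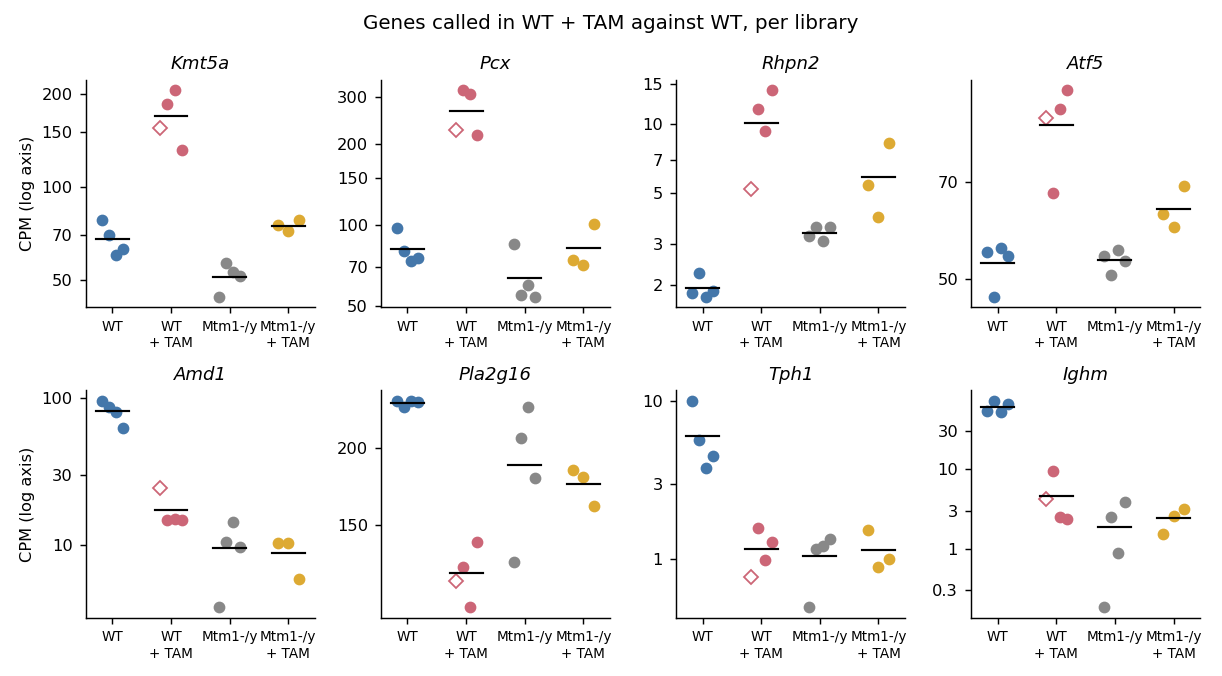
CPM on log axes for 8 genes in each library of the 4 groups. Points are libraries, the open diamond is WT + TAM replicate 1 and bars are group means. WT and WT + TAM do not overlap in any panel, and in the panels of Amd1, Tph1 and Ighm both mutant groups lie near or below the treated WT libraries.

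Pla2g16, Tph1 and Ighm fell in both fits. Pla2g16, a phospholipase of lipid droplets that is abundant in fat, was at 239, 234, 239 and 238 CPM in WT and at 122, 128, 110.3 and 141 CPM in WT + TAM. The WT values were within 5 CPM of each other and all treated values lay below them. The log2 fold change was -0.92 ± 0.14 (edgeR adjusted p = 0.00975). The level of Pla2g16 in replicate 1 was 122 CPM although the summed white adipocyte markers were raised there. Tph1, the peripheral tryptophan hydroxylase of serotonin synthesis, was at 10.1, 5.69, 3.81 and 4.52 CPM in WT and at 0.777, 1.58, 0.989 and 1.30 CPM in WT + TAM. Its log2 fold change was -2.39 ± 0.35 (edgeR adjusted p = 0.00942), and it was 1 of 10 tested mast cell markers and the only one of them to pass in either fit. Of these 10 markers, 7 had positive log2 fold changes over all libraries (median 0.36) and 6 without replicate 1 (median 0.26). Without replicate 1, leaving out replicate 3 took the adjusted p of Pla2g16 to 0.0941, and leaving out replicate 3 or 4 took that of Tph1 to at most 0.0955.

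Ighm, the constant region of IgM, fell from 52.4 to 71.6 CPM in WT to 2.33 to 9.28 CPM in WT + TAM, and the mutant libraries held 0.183 to 3.85 CPM without the drug. It was 1 of 7 tested B cell and plasma cell genes. Igkc was at 0.369 to 1.81 CPM in WT and 0.245 to 2.40 CPM in WT + TAM, Jchain at 0.344 to 0.880 CPM and 0.409 to 1.02 CPM, and Cd79b at 0.237 to 0.664 CPM and 0.123 to 0.381 CPM. None of these 3 passed. Groups overlapped for all 3 and were far apart for Ighm. The call for Ighm was lost when any 1 WT library or WT + TAM replicate 3 or 4 was left out (edgeR adjusted p up to 0.0921 over all libraries and 0.179 without replicate 1).

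Other genes that fell in both fits were Col6a6, a collagen VI chain (8.22 to 10.8 CPM in WT, 2.77 to 5.71 CPM in WT + TAM), Gadl1, a decarboxylase of the beta-alanine pathway (16.2 to 30.2 CPM and 6.92 to 11.9 CPM), Aspa, the aspartoacylase that releases acetate from N-acetylaspartate (6.01 to 7.67 CPM and 2.94 to 4.42 CPM), and Tiam1, an exchange factor for the GTPase Rac1 (5.09 to 11.8 CPM and 2.25 to 3.23 CPM). Groups did not overlap for these 4 genes. Each lost its call in at least 4 of the 7 further leave-out fits in each setting. The highest adjusted p in edgeR was 0.130 for Col6a6, 0.183 for Gadl1, 0.187 for Tiam1 and 0.287 for Aspa, and leaving out WT + TAM replicate 3 lost all 4 calls in both settings. Slco2a1, a prostaglandin transporter, rose from 2.33 to 2.78 CPM to 5.11 to 6.83 CPM, and Lamb3, a laminin chain, rose from 2.08 to 3.12 CPM to 3.84 to 6.10 CPM. Lamb3 was 1 of 19 laminin and integrin genes tested and the only one to pass. Over all libraries the Lamb3 call was lost without any 1 of the other 7 libraries (edgeR adjusted p up to 0.160), and without replicate 1 only when replicate 4 was also left out (adjusted p = 0.0592). Slco2a1 lost its call over all libraries without any 1 WT library (adjusted p up to 0.0734), and without replicate 1 also when replicate 2 or 3 was left out (adjusted p up to 0.113). In the mutants Lamb3 was higher with the drug too, from 1.94 to 3.15 CPM to 6.25 to 8.53 CPM.

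A stretch of chromosome 19 held several of the called genes. Between Pcx and Pla2g16 (GRCm38 chromosome 19, 4510472 to 7588545) 117 genes were tested, and without replicate 1 5 of them rose (Pcx, AC109619.1, Flrt1, Otub1 and Mark2) and Pla2g16 fell. Flrt1, a membrane protein of cell adhesion and fibroblast growth factor signalling, was at 0.575 to 1.29 CPM in WT and at 108, 139 and 111 CPM in treated replicates 2 to 4 but at 3.19 CPM in replicate 1. The noncoding gene AC109619.1, 3580 bases from Flrt1 and on the same strand, was at 0.148 to 0.293 CPM in WT and at 28.6, 39.2 and 34.4 CPM, with 1.68 CPM in replicate 1. Over all libraries the call for Flrt1 was lost in each of the 7 other leave-out fits (edgeR adjusted p up to 0.152), and without replicate 1 in none. Otub1, a deubiquitinase, and Mark2, a kinase of microtubule-binding proteins, were less than 100000 bases from their nearest called neighbour. Otub1 was at 35.01 to 39.3 CPM in WT and 51.5 to 55.2 CPM in replicates 2 to 4, and Mark2 was at 42.5 to 51.7 CPM and 65.3 to 77.2 CPM. Replicate 1 was below every WT library for both, at 32.0 and 41.2 CPM. The interval was chosen after the values were seen.

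Such neighbours were seen elsewhere. Of the 115 genes that passed in either fit, 22 had another of them within 100000 bases. That is 19.1% of them, while 2.71% of all 15463 genes tested in both fits had one of the called genes that near. They formed 16 pairs, none overlapping, and both genes had the same sign in all 16, as had 53.1% of all pairs of tested genes that near. Of the 16 pairs 6 lay among the H2-Q genes, close copies between which the division of reads is uncertain, and 10 did not. Outside the H2-Q pairs, 18 called genes had a called neighbour. One of them, Gm43682, lies 523 bases from Sept11 on the same strand. Whether such close pairs are separate transcripts was not tested. Examples are Slc15a5 with Mgst1 on chromosome 6, Dkk3 with Mical2 on chromosome 7, Amd1 with Cdk19 on chromosome 10, Xbp1 with Ccdc117 on chromosome 11 and Chrna9 with 9130230L23Rik on chromosome 5. By chromosome, 1.94% of tested genes on chromosome 19 and 1.32% on chromosome 17 passed without replicate 1, against 0.716% of all tested genes. Amd1 is described below. Cdk19, a kinase of the Mediator complex whose gene lies 37378 bases from Amd1, was at 25.0 to 44.0 CPM in WT and 10.5 to 22.5 CPM in WT + TAM, with replicate 1 the highest treated library. Its log2 fold change was -1.37 ± 0.17 without replicate 1 (edgeR adjusted p = 0.00139), a call held in each leave-out fit, and -1.10 ± 0.21 over all libraries (adjusted p = 0.0442), a call lost without any 1 of the other 7 libraries (adjusted p up to 0.145).

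Of 14 class I histocompatibility genes and pseudogenes tested, 6 rose without replicate 1. These genes encode the heavy chains that display peptides on the cell surface with beta-2-microglobulin, and resting muscle fibres are known to express them weakly. H2-K1 was at 46.3, 32.4, 42.8 and 40.4 CPM in WT, at 80.0, 77.1 and 68.8 CPM in treated replicates 2 to 4 and at 44.3 CPM in replicate 1. H2-D1 was at 46.6, 36.6, 49.6 and 47.5 CPM in WT, at 81.1, 76.8 and 69.1 CPM in replicates 2 to 4 and at 44.8 CPM in replicate 1. Thus the 3 treated libraries lay above all WT libraries for both, and replicate 1 lay inside the WT range. The log2 fold change without replicate 1 was 0.90 ± 0.12 for H2-K1 (edgeR adjusted p = 0.00155) and 0.75 ± 0.14 for H2-D1 (adjusted p = 0.0160), and with it 0.74 ± 0.16 (adjusted p = 0.0669) and 0.59 ± 0.17 (adjusted p = 0.174). H2-Q4 rose from 4.31 to 6.86 CPM to 13.2 to 13.8 CPM, H2-Q6 from 0.352 to 0.713 CPM to 3.87 to 5.91 CPM, and H2-Q7 from 0.352 to 0.418 CPM to 2.14 to 3.66 CPM in replicates 2 to 4. Replicate 1 was at 5.48, 0.368 and 0.572 CPM for these. H2-Q5, annotated as a polymorphic pseudogene, also passed. The H2-Q genes are close copies, so the division of reads among them is uncertain. Only H2-Q7 of the 6 passed over all libraries (log2 fold change 2.53 ± 0.50, edgeR adjusted p = 0.0433).

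**Figure D4:**
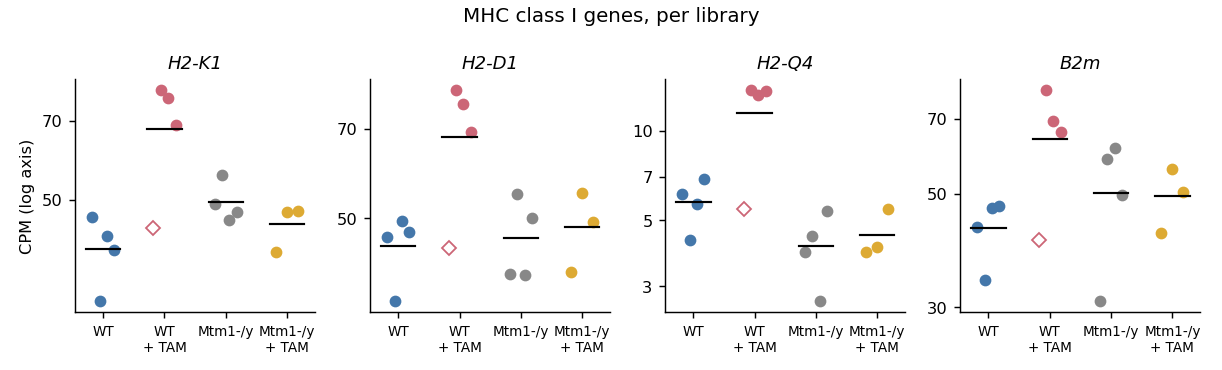
CPM on log axes of 3 class I heavy chain genes and of B2m in each library by group. Points are libraries, the open diamond is WT + TAM replicate 1 and bars are group means. The 3 filled WT + TAM points lie above all 4 WT points in every panel, while the open diamond lies within the WT range.

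The partner chain and the genes of peptide supply gave no call. B2m was at 33.9 to 47.2 CPM in WT, at 79.8, 69.2 and 66.0 CPM in replicates 2 to 4 and at 40.7 CPM in replicate 1. It did not pass without replicate 1 (log2 fold change 0.74 ± 0.19, edgeR adjusted p = 0.112). The nonclassical H2-T23 was at 3.76 to 5.10 CPM in WT and at 6.17 to 7.40 CPM in all 4 treated libraries (0.64 ± 0.19, adjusted p = 0.179). The other class I members that did not pass had log2 fold changes without replicate 1 of 0.06 for H2-Q10, 0.18 for H2-T24, 0.21 for H2-T22, 0.22 for H2-K2, 0.35 for H2-M3, 0.35 for H2-T10 and -2.15 for the pseudogene H2-M6-ps. The peptide transporter Tap1 was at 2.88 to 4.55 CPM and 2.86 to 5.25 CPM, and the transactivator Nlrc5 at 0.356 to 1.03 CPM and 0.409 to 1.79 CPM. The immunoproteasome subunits Psmb8 and Psmb9 had log2 fold changes of 0.56 ± 0.30 and 0.75 ± 0.32 without replicate 1 and did not pass. Of 23 tested interferon-response genes 0 passed in either fit, with a median log2 fold change of 0.32 without replicate 1 and 20 positive values (5 at an unadjusted p under 0.05). Over all tested genes the median was -0.01, and 11.01% were at an unadjusted p under 0.05. Between H2-K1 and H2-Q7 (GRCm38 chromosome 17, 33996017 to 35443773) 74 genes were tested, of which these 6 rose and Ly6g6d fell.

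The DNA just upstream of H2-K1, H2-D1 and H2-Q4 is shown because 5 of the 6 heavy chain genes held a match there (RefSeq, GRCm38.p6, 250 bases before the annotated start). Capitals mark the match to GAANNGAAA, an interferon-response-like motif searched on both strands, here on the opposite strand to the gene. The H2-K1 window lies on the minus strand at chr17:34000348-34000597, that of H2-D1 on the plus strand at chr17:35262844-35263093, inside the longer H2-D1 model of the count annotation, and that of H2-Q4 on the plus strand at chr17:35379367-35379616. The match began 90, 150 and 153 bases before the start.
H2-K1: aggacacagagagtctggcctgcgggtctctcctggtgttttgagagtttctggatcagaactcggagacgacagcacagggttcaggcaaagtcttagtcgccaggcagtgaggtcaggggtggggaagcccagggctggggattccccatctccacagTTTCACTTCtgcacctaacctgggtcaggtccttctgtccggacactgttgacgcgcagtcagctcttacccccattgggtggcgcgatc
H2-D1: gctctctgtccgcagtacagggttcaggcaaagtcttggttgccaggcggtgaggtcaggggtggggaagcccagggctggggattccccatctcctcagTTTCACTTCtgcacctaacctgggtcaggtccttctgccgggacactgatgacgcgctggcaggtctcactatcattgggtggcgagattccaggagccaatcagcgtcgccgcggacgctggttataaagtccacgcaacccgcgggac
H2-Q4: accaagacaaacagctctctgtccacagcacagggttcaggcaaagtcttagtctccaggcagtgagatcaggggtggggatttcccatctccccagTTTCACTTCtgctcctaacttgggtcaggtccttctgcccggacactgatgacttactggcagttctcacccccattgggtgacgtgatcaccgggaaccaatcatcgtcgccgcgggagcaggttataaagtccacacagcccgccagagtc
The printed windows share long identical stretches, as copies of a gene family do, so the matches are not independent of each other. The motif was chosen after the class I genes had been seen to rise. It was present in 6 of 49 promoters of genes higher without replicate 1 (12.2%), which were the 5 class I genes and Cdkn1a, in 1 of 33 promoters of genes lower (3.03%, Mgst1) and in 7.43% of all 11126 matched promoters.

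All promoter counts refer to windows from 250 bases before to 50 bases after the start, of which the printed sequences are the first 250 bases. Motifs of hormone and stress signalling were searched there on both strands. The full oestrogen response element, a pair of inverted GGTCA motifs 3 bases apart, was in 0 of 49 promoters of genes higher and 0 of 33 of genes lower without replicate 1, and in 1 of 11126 promoters. A lone GGTCA was in 20 (40.8%) and 13 (39.4%) of them and in 42.2% of all promoters. The cyclic AMP response element was in 0 of 49 and 0 of 33 promoters against 3.36% of all, the AP-1 site in 3 and 1 against 6.40%, and the E-box in 4 and 3 against 11.5%. Thus the shares for the lone GGTCA lay near that of all promoters, and more distant sites were not examined.

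Oestrogen receptor targets gave calls in both directions. The receptor Esr1 was at 24.6 to 29.2 CPM in WT and 24.2 to 29.4 CPM in WT + TAM, fully overlapping. Of 21 tested targets, Xbp1 passed in both fits and Myc passed without replicate 1, and the list median was 0.25 over all libraries and 0.06 without replicate 1, with 11 and 12 positive values. Xbp1, a transcription factor of secretory capacity and of the unfolded protein response, was at 40.5, 47.4, 50.4 and 46.3 CPM in WT, at 99.6, 88.8 and 86.4 CPM in replicates 2 to 4 and at 52.8 CPM in replicate 1. All treated values exceeded WT, replicate 1 narrowly. The log2 fold change of Xbp1 was 0.83 ± 0.15 over all libraries (edgeR adjusted p = 0.0296) and 0.99 ± 0.10 without replicate 1 (adjusted p = 0.000208). Over all libraries the call for Xbp1 was lost in each of the 7 other leave-out fits (adjusted p up to 0.109), and without replicate 1 in none. Myc, a growth-promoting transcription factor, was at 2.17 to 3.55 CPM in WT and 0.725 to 1.25 CPM in replicates 2 to 4, with 2.49 CPM in replicate 1, and its call was lost without WT replicate 1 or 4 or WT + TAM replicate 2 or 4 (edgeR adjusted p up to 0.107). Greb1, a classical target, was at 1.62 to 2.51 CPM and 1.76 to 3.52 CPM and did not pass. The progesterone receptor gene Pgr was too low for the fit, with 0 to 2 counts in WT libraries and 5 to 17 counts in WT + TAM libraries. It was 1 of 6 such genes compared (exact two-sided permutation test on CPM, p = 0.0286, the smallest that 4 against 4 allows and not adjusted). Among 28 tested steroid and nuclear receptor genes 0 passed in either fit in edgeR. Their median was 0.18 over all libraries and 0.23 without replicate 1. Of the 28, 6 and 7 were at an unadjusted p under 0.05, against 11.31% and 11.01% of all tested genes.

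Genes of androgen-responsive muscle, which include polyamine enzymes, had a negative median. Amd1, the S-adenosylmethionine decarboxylase that supplies aminopropyl groups for spermidine and spermine, was at 95.3, 86.1, 79.8 and 62.4 CPM in WT and at 24.3, 14.94, 15.03 and 14.87 CPM in WT + TAM, without overlap. Its log2 fold change was -2.23 ± 0.33 (edgeR adjusted p = 0.0121) and, without replicate 1, -2.44 ± 0.35 (adjusted p = 0.00574). Over all libraries the call was lost without WT replicate 1 or WT + TAM replicate 4 (adjusted p up to 0.0549). Smox, the spermine oxidase, was at 297, 153, 134 and 123 CPM in WT and at 84.0, 29.2, 48.1 and 41.7 CPM in WT + TAM, also without overlap. It passed only without replicate 1 (-2.15 ± 0.39, edgeR adjusted p = 0.0257), and the call was lost without WT replicate 2 or without any 1 of the remaining treated libraries (adjusted p up to 0.112). The Smox call was also lost with no filter, with the replicate block and with WT and WT + TAM fitted alone. Other polyamine genes gave other values. Odc1, the ornithine decarboxylase, was at 24.6 to 43.3 CPM and 34.9 to 60.4 CPM, and Sat1, which acetylates spermidine and spermine, was at 9.91 to 14.2 CPM and 13.7 to 16.8 CPM. Neither passed.

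Over the 15 tested genes of that list the median log2 fold change was -0.61 with replicate 1 and -0.62 without it, against 0.00 and -0.01 over all tested genes. Only Amd1 and Smox passed. Slc38a4, an amino acid transporter, was at 115, 157, 177 and 234 CPM in WT and 79.4 to 97.1 CPM in WT + TAM (-0.96 ± 0.26, edgeR adjusted p = 0.153). Igf1, an anabolic growth factor, was at 15.7 to 28.2 CPM and 4.46 to 15.3 CPM (-1.09 ± 0.46, adjusted p = 0.395). In untreated mutants Amd1 stood at 3.79 to 14.3 CPM and in treated mutants at 5.92 to 10.4 CPM, all below every WT + TAM library.

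Glucocorticoid-responsive genes had a positive median. Of 20 tested, 19 had positive log2 fold changes over all libraries and 18 without replicate 1, with medians of 0.90 and 0.85, but only Cdkn1a passed, and only without replicate 1. The summed level of the list was 1918 to 2116 CPM in WT and 2927, 2121, 2240 and 4742 CPM in WT + TAM, so treated replicate 4 stood highest and replicate 2 lay less than 5 CPM above the highest WT library. Cdkn1a, the p21 inhibitor of cyclin-dependent kinases, was at 18.7, 43.9, 57.4 and 29.8 CPM in WT and at 58.2, 82.1, 127 and 266 CPM in WT + TAM. No treated library overlapped WT, although the lowest exceeded the highest WT library by less than 1 CPM. Its log2 fold change was 1.84 ± 0.43 (edgeR adjusted p = 0.110) and, without replicate 1, 2.09 ± 0.40 (adjusted p = 0.0333). That call was lost without WT replicate 1, 2 or 4 or WT + TAM replicate 3 or 4 (adjusted p up to 0.118). It was also lost with no filter, with the replicate block and with WT and WT + TAM fitted alone (edgeR adjusted p up to 0.137). The metallothionein Mt2 was at 5.40 to 8.14 CPM in WT and at 15.7, 11.6, 12.2 and 57.7 CPM in WT + TAM, and the transcription factor Cebpb at 1.55 to 1.99 CPM and 6.17, 2.91, 2.46 and 5.87 CPM. Groups did not overlap for either, and neither passed (edgeR adjusted p = 0.213 and 0.157). The share of all tested genes without overlap is not given, here or elsewhere, so lack of overlap in single genes is a description. The immunophilin Fkbp5 was at 28.1 to 47.6 CPM in WT and at 136, 21.3, 67.9 and 146 CPM in WT + TAM, so replicate 2 lay below WT and the other 3 above. In the mutants the median of the same list was -0.77, with 2 positive values, and untreated mutants held Mt2 at 108 to 322 CPM and Cdkn1a at 245 to 392 CPM.

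Immediate early and stress-response genes gave a few calls. Zfp36, the tristetraprolin that speeds decay of inflammatory mRNAs, was at 23.8 to 29.3 CPM in WT and at 40.1, 50.01, 40.9 and 55.9 CPM in WT + TAM (log2 fold change 0.78 ± 0.12, edgeR adjusted p = 0.00975). Its call over all libraries was lost without WT replicate 1 (adjusted p = 0.0554). Of 29 tested immediate early genes it was the only one to rise past the threshold, and 23 were positive, with a median of 0.45. Myc, described above, is in the same list and passed as lower without replicate 1. Jun, a subunit of the AP-1 factor, was at 30.1 to 39.0 CPM and 51.6 to 63.9 CPM (edgeR adjusted p = 0.0541). Jund was at 4.23 to 6.15 CPM and 9.34 to 14.7 CPM (adjusted p = 0.0532), and neither passed. Fos was at 3.54 to 12.1 CPM and 5.38 to 14.4 CPM, overlapping. Atf5, a transcription factor of the mitochondrial and integrated stress responses, was at 46.9 to 55.7 CPM in WT and at 87.3, 67.2, 90.2 and 96.2 CPM in WT + TAM, and it rose in both fits (0.69 ± 0.10, edgeR adjusted p = 0.00942). Without replicate 1 that call was lost when replicate 3 or 4 was also left out (adjusted p up to 0.0655). It was 1 of 20 tested antioxidant and stress genes, whose median was -0.05. The extracellular peroxidase Gpx3, in that list, was at 51.1 to 60.0 CPM in WT and at 234, 218, 212 and 162 CPM in WT + TAM, yet did not pass (1.92 ± 0.38, adjusted p = 0.0625).

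Cell-cycle genes had the lowest median of the lists. It was -1.07 in both fits, with 18 of 20 tested genes negative, and 0 passed in edgeR. Of the 20, 14 were at an unadjusted p under 0.05 in both fits, against 11.31% and 11.01% of all tested genes. Mki67, a marker of dividing cells, was at 2.53, 3.71, 8.497 and 8.596 CPM in WT and at 1.19, 3.47, 0.362 and 0.686 CPM in WT + TAM. Top2a, a topoisomerase of dividing cells, was at 1.97, 2.96, 6.06 and 6.95 CPM and at 1.14, 2.60, 0.217 and 0.496 CPM. WT replicates 3 and 4 were the high libraries and treated replicate 2 overlapped WT for both genes. Their adjusted p was 0.288 over all libraries. With a minimum count of 50 for testing, the list median was -0.66. Untreated mutants held Mki67 at 0.0262 to 1.01 CPM.

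**Figure D5:**
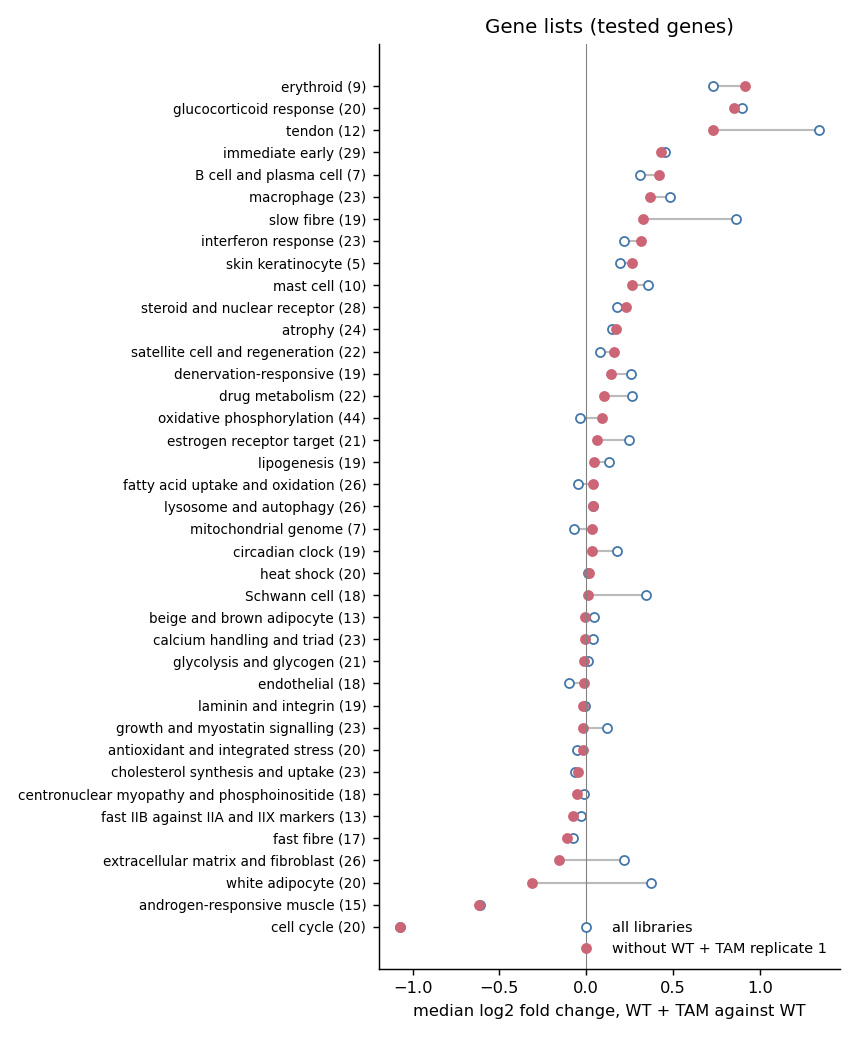
Median log2 fold change of WT + TAM against WT over the tested genes of each list with at least 5 of them (number in parentheses), over all libraries (open circles) and without WT + TAM replicate 1 (filled circles). The slow-fibre, tendon, white adipocyte, extracellular matrix and Schwann cell lists move toward or past 0 without replicate 1, while the androgen-responsive, glucocorticoid and cell-cycle lists stay in place.

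Lists of fibre and tissue types differed with replicate 1. The slow-fibre median was 0.86 with it and 0.33 without it, the tendon median 1.34 and 0.73, the Schwann cell median 0.34 and 0.01, and the white adipocyte median 0.37 and -0.32. The extracellular matrix and fibroblast median went from 0.22 to -0.16. No gene of these 5 lists passed in either fit. Oxidative phosphorylation genes had 17 of 44 positive values with replicate 1 and 37 of 44 without it, with medians of only -0.03 and 0.09 and no gene past the threshold. Fast-fibre genes had medians of -0.08 and -0.11, and endothelial genes -0.10 and -0.01, again with no call. Erythroid genes, with a median of 0.73 and 0.92 over 9 genes, and macrophage genes, with 0.49 and 0.37 over 23 genes, were mostly positive but 0 passed. Lists with medians within 0.1 of 0 in both fits and no call included cholesterol synthesis, fatty acid oxidation, glycolysis, calcium handling, lysosome and autophagy, heat shock and centronuclear myopathy genes. The myopathy-linked genes Dnm2 and Bin1, which remodel membranes, were at 55.0 to 57.7 CPM and 52.1 to 60.6 CPM, and at 519 to 608 CPM and 496 to 599 CPM, in WT and WT + TAM.

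The 67 genes called only without replicate 1 included genes for which that library stayed near WT. Slc15a5, a solute carrier, was at 37.0, 20.8, 13.01 and 12.9 CPM in WT, at 0.204, 0.241 and 1.30 CPM in treated replicates 2 to 4 and at 9.73 CPM in replicate 1. Mgst1, a microsomal glutathione transferase whose gene lies 60400 bases away, was at 22.3 to 33.1 CPM in WT, at 6.73, 4.37 and 6.48 CPM and at 19.3 CPM in replicate 1. Dkk3, of the dickkopf family of secreted proteins, was at 8.93 to 11.02 CPM in WT, at 1.43, 2.10 and 2.25 CPM and at 16.3 CPM in replicate 1. In these genes replicate 1 was nearer to WT than to the other treated libraries. The log2 fold change without replicate 1 was -5.19 ± 0.64 for Slc15a5, -2.19 ± 0.18 for Mgst1 and -2.31 ± 0.26 for Dkk3 (edgeR adjusted p = 0.00192, 4.37e-05 and 0.000671), and each of these calls held when any 1 further library was left out. Sh2d6, an adaptor protein gene, was at 2.79 to 4.03 CPM in WT, at 1.02, 1.54 and 1.75 CPM and at 16.6 CPM in replicate 1, so its log2 fold change went from 0.62 to -1.21. Serpinb6a, a protease inhibitor, was at 243 to 273 CPM in WT, at 121, 153 and 177 CPM and at 345 CPM in replicate 1.

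Slc2a3, a glucose transporter, was at 8.24 to 11.5 CPM in WT, at 2.09, 3.91 and 3.78 CPM in replicates 2 to 4 and at 8.66 CPM in replicate 1. Among the genes that rose, Chrna9, a nicotinic receptor subunit, was at 0.499 to 1.55 CPM in WT, at 5.96, 8.83 and 7.93 CPM in replicates 2 to 4 and at 0.286 CPM in replicate 1. The neighbouring gene 9130230L23Rik was at 0.177 to 0.271 CPM in WT, at 2.29 to 2.52 CPM in replicates 2 to 4 and without a count in replicate 1. Ephb6, an ephrin receptor, was at 1.62 to 2.43 CPM, at 5.38 to 9.38 CPM and at 2.25 CPM. Ccdc125 was at 0.593 to 1.203 CPM, at 3.36 to 3.88 CPM and at 0.695 CPM. Twnk, the helicase of mitochondrial DNA, was at 29.7 to 33.3 CPM in WT, at 47.4 to 49.9 CPM in replicates 2 to 4 and at 31.8 CPM in replicate 1. Replicate 1 was inside or below the WT range for Chrna9, 9130230L23Rik, Ephb6, Ccdc125 and Twnk. Untreated mutants held Chrna9 at 4.48 to 10.4 CPM.

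Replicate 1 was then compared with WT over all 111 genes called without it, since it took no part in choosing them. It lay beyond all 4 WT libraries in the called direction for 69 of the 111 genes (62.2%), against 39.2% of all 15463 genes tested in both fits when the direction of the other 3 was used. For the 64 higher genes its median log2 difference from WT was 0.25, against 1.03 for the other 3 treated libraries. For the 47 lower genes it was -0.60 against -1.60. The WT libraries used here also chose the genes, so the 62.2% and both medians depend on that reference. The direction over all genes was read against the same WT libraries, so the 39.2% depends on that reference too. It involves no selection of genes by a call, so these shares are not alike. No test was made of the shares or the medians, and they are a description. Of the 4 genes called only with replicate 1, Lgals3, Stum, Cuedc1 and Gm10698, the adjusted p without it was 0.0541 to 0.0586. Cuedc1, an ubiquitin-binding domain protein, was at 136 to 156 CPM in WT and at 94.3, 91.4, 104 and 109.6 CPM in WT + TAM.

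The mutants gave the same drug in libraries that share no sample with WT, although they share the estimate of spread. Of the 111 genes, 22 (19.8%) had the same direction at an unadjusted p under 0.05 in Mtm1-/y + TAM against Mtm1-/y, compared with 2.1% of all 15463 genes. They were 19 of the 64 higher genes and 3 of the 47 lower genes. The median log2 fold change in the mutants was 0.22 over the higher genes and -0.10 over the lower genes. Otoa, Cyfip2, Lamb3 and Twnk were higher in every treated than in every untreated mutant library. Otoa was near the floor there, at 0 to 0.0318 CPM in untreated and 0.151 to 0.318 CPM in treated mutants. In the mutant libraries 3 counts were 0.0672 to 0.159 CPM, and WT held Otoa at 0.221 to 0.411 CPM. Cyfip2, a subunit of the actin-regulating WAVE complex, was at 0.675 to 1.13 CPM in WT, at 1.84, 14.3, 7.21 and 6.29 CPM in WT + TAM, at 1.23 to 2.78 CPM in untreated mutants and at 18.4 to 28.2 CPM in treated mutants. Twnk was at 23.1 to 26.3 CPM in untreated and 39.5 to 44.2 CPM in treated mutants. Kmt5a was at 44.0 to 56.7 CPM and 71.8 to 77.8 CPM there, also without overlap (0.55, unadjusted p = 0.00115).

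Whether the effect of the drug differed with genotype was tested by the interaction term. Over all libraries 0 genes passed in edgeR (smallest adjusted p = 0.176, 1650 at an unadjusted p under 0.05), 0 passed in limma-voom and 74 passed in DESeq2. Without replicate 1, 7 of 15510 genes (0.0451%) passed. Mgst1, Dkk3 and Gm9903 fell in WT, with values of -0.13, 0.17 and 1.04 in the mutants. H2-K1, Zfp36 and Romo1, a mitochondrial membrane protein that promotes reactive oxygen, rose in WT, with values of -0.13, -0.22 and -0.31 in the mutants. Mthfd2, a mitochondrial folate enzyme, had -0.28 in WT and 1.15 in the mutants. H2-K1 was at 45.8 to 55.5 CPM in untreated and 39.9 to 47.6 CPM in treated mutants, and these ranges overlapped. Mgst1 stood at 6.17 to 9.11 CPM in untreated mutants, near the level of treated WT replicates 2 to 4. Dkk3 stood at 1.33 to 3.01 CPM in untreated mutants, also near treated WT replicates 2 to 4, at 1.43 to 2.25 CPM. Zfp36 stood at 53.2 to 63.1 CPM in untreated mutants, against 40.1 to 55.9 CPM in treated WT. An unadjusted interaction p under 0.05 was found for 89 of the 111 genes and for 1796 of 15463 genes tested in both fits (11.6%). The 111 were chosen for a change in WT, so this count is a description.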

How the data were processed

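RNA from tibialis anterior muscle was extracted with TRI Reagent and made into stranded mRNA libraries with the TruSeq kit. The deposited values are raw gene counts, made by the authors from reads mapped to mm10 (GRCm38). Tools listed in the submitters' processing notes are STAR 2.5.3a, Bowtie2 2.2.8, HTSeq 0.6.1p1 and cutadapt 1.10. No source read here says whether counting used strand, so overlapping antisense genes are uncertain.

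Genes were tested with edgeR 4.0.16 (TMM factors, filterByExpr with a minimum count of 10, robust quasi-likelihood fit, Benjamini-Hochberg adjustment, threshold 0.05) in R 4.3.3. All 15 libraries shared 1 fit, with 11 residual degrees of freedom, and the fit was repeated without WT + TAM replicate 1, with 10. CPM use the TMM factors of the first fit, and log2 CPM a prior count of 2. DESeq2 1.42.0, limma 3.58.1 (voom), other scalings, filters, a replicate block and leaving out each library were alternatives. The scripts were tested on simulated data. Where a library has 0 counts, up to 3 remain possible from counting error alone. Totals were 19888576 to 45823277 counts over the 8 libraries, and low genes are least precise in the shallowest.

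Named genes were called in both fits (12 highest and 12 lowest with mean log2 CPM of at least 0), in 1 fit only (6 and 6 without replicate 1, up to 5 and 5 with it), called within a list (up to 4 per direction), fixed by name, or extreme in WT + TAM replicate 1 (8 highest and 4 lowest). Genes outside this rule, among them the class I, neighbour and interaction genes, were chosen after their values were seen. The members and lists were chosen with earlier results of these data known. Same-numbered WT and WT + TAM libraries did not deviate together, so no block was used. Coordinates are GENCODE M21 on GRCm38. Promoters are RefSeq sequences of GRCm38.p6, found for 11126 of 15529 tested symbols, from 250 bases before to 50 after the start.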

Additional observations from a re-analysis of the deposited data

Results flagged for a closer look

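In 138 groups of 4 libraries (69 named genes in WT and in WT + TAM), 1 library lay far from the other 3 in 30 by Dixon's criterion, which chance meets in about 1 in 20 groups, and 23 of the 30 were WT + TAM replicate 1. Of these 23, 18 concern genes that were named because replicate 1 was extreme in them or because they passed only without it, so the number cannot be read against chance. In that library Myh7 was at 439 CPM (1.45 to 3.70 in the other 3), Myh6, a cardiac and slow myosin, at 105 CPM (1.64 to 6.73), Myl2 at 272 CPM (0.820 to 11.5), Tnnt1 at 104 CPM (1.52 to 5.30), Tnnc1 at 94.2 CPM (1.11 to 3.36) and Tnni1 at 79.3 CPM (1.71 to 4.74). Col12a1, a collagen of tendon and fascia, was at 180.5 CPM (1.30 to 9.65), Postn at 332 CPM (8.18 to 20.6), Scd1 at 243 CPM (12.5 to 26.9), Adipoq at 12.02 CPM (0.0381 to 1.43) and Plin1 at 11.2 CPM (0.153 to 0.918). Sim2 was at 0.0817 CPM (21.4 to 24.3), Sim1 at 0.613 CPM (9.42 to 10.01) and Tbx1 at 1.06 CPM (38.5 to 43.8).

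Among genes that passed the test, the same library held Slc15a5 at 9.73 CPM (0.204 to 1.30), Mgst1 at 19.3 CPM (4.37 to 6.73), Dkk3 at 16.3 CPM (1.43 to 2.25), A330094K24Rik at 7.11 CPM (0.419 to 0.796), 8430426J06Rik at 1.19 CPM (0.255 to 0.267), Htra4 at 1.19 CPM (0.408 to 0.496), Ccdc125 at 0.695 CPM (3.36 to 3.88), Amd1 at 24.3 CPM (14.87 to 15.03) and BC067074 at 5.80 CPM (2.68 to 3.11).

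In WT, replicate 1 was high in Atp13a5 at 34.2 CPM (10.2 to 11.97), Tiam1 at 11.8 CPM (5.09 to 5.97) and Aspa at 7.67 CPM (6.01 to 6.20). WT replicate 2 was low in Htra4 at 1.30 CPM (2.61 to 2.88). WT replicate 4 was low in Cyfip2 at 0.675 CPM (1.11 to 1.13) and in Dnm2 at 55.0 CPM (57.4 to 57.7), and high in Ccdc125 at 1.203 CPM (0.593 to 0.664).

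The response to tamoxifen differed between genotypes in 7 genes by the interaction term without WT + TAM replicate 1 (edgeR). The mutant response minus the WT response, on the log2 scale, was 3.44 for Gm9903, 2.48 for Dkk3, 2.06 for Mgst1, 1.43 for Mthfd2, -0.96 for Romo1, -1.03 for H2-K1 and -1.07 for Zfp36. Over all libraries no gene passed.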

How the results depend on the processing

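Over all libraries 48 genes passed, with 298 in DESeq2, 33 with the replicate block (25 higher) and 11 to 111 when 1 library was left out. The highest was without WT + TAM replicate 1, and the counts were 11, 14, 17 and 19 without WT replicates 1 to 4, and 22 and 21 without WT + TAM replicates 3 and 4. Fitting WT and WT + TAM alone gave 48 genes, of which 22 were shared. Without WT + TAM replicate 1, 111 genes passed, with 329 in DESeq2, 332 when WT and WT + TAM were fitted alone (100 shared), 64 with a log2 fold change beyond 1, 86 with the block (59 higher) and 46 to 95 when 1 further library was left out. The interaction gave 0 genes, 74 in DESeq2, 0 with the block and 0 to 7 with 1 library left out. The numbers did not pair the libraries (correlations of deviations -0.06, -0.06, -0.01 and 0.05). With a minimum count of 50, list medians were 0.088 for oestrogen receptor targets, -0.22 for mast cell and -0.66 for cell-cycle genes. With 1 library left out they were 0.046 to 0.20 for oestrogen receptor targets, -0.067 to 0.041 for cholesterol synthesis, -0.32 to 0.53 for white adipocyte, -0.21 to 0.63 for B cell, 0.82 to 1.92 for neutrophil, 0.14 to 0.35 for denervation-responsive, -0.020 to 0.22 for growth signalling and -0.054 to -0.0055 for centronuclear myopathy genes. Of the alternatives for single named genes 1493 kept direction and side of the threshold, 272 lost the call, 35 gained it and 24 changed sign, in 9 genes that passed in neither setting. Over all libraries these log2 fold changes were -0.80 (limma-voom) and -0.043 (block) for Tbx1, -0.68 (limma-voom) for Adipoq, -0.00146 (upper-quartile factors) for Dnm2, and 0.0045 (RLE factors), 0.00044 (minimum count 50), 0.0048 (DESeq2) and 4.5e-05 (limma-voom) for Esr1. With 1 library left out they were -0.16 to 0.46 for Tbx1, -0.048 to 0.048 for Esr1, -1.003 to 1.58 for Adipoq, -0.095 to 2.92 for Postn, -0.74 to 2.04 for Plin1, -0.18 to 0.92 for Myh2, -0.011 to 0.059 for Dnm2, -0.020 to 2.15 for Scd1 and -0.45 to 0.19 for Sim2. The cause of these shifts was not tested.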
